A study of Saccharomyces cerevisiae with 12 samples.

Results

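The nuclear genes for the respiratory chain and ATP synthase of budding yeast were followed over wildtype and anc1Δ cells with and without MMS. The members were 33 genes taken by name from what their products are, with no measured value in the rule, and all 33 were measured, out of 5656 genes that the arrays read. They comprised 3 NADH dehydrogenases, 9 subunits of complex III, 7 of complex IV and 14 of ATP synthase. Each gene was read from a single probe set, the brightest of those that named it alone.

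Total RNA of anc1Δ cells with MMS, untreated anc1Δ cells, wildtype cells with MMS and untreated wildtype cells was hybridized to 3 arrays of each kind, 12 in all, of the Affymetrix YG-S98 type. MMS is methyl methanesulfonate, a DNA methylating agent, and anc1Δ cells lack Anc1 (Taf14), a subunit shared by TFIID, TFIIF, Mediator and several chromatin remodelling complexes. The methods describe growth of both strains in YPD, a rich glucose medium, into log phase, and do not mention the cells with MMS there. Both strains were of the BY4741 background, a MATa haploid that carries his3Δ1, leu2Δ0, met15Δ0 and ura3Δ0. The strain list names URA3 as the cassette that replaced ANC1 in BY4741. For the cells whose RNA went on arrays, the methods name a G418 resistance marker. The sources used here give neither dose nor duration of MMS for these arrays. In the study, arrays of both strains served to ask whether Anc1 affects transcripts of postreplicative repair genes, and no separate purpose is given for the arrays with MMS.

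Budding yeast has no proton-pumping complex I. Electrons from NADH enter the chain through simple dehydrogenases on either face of the inner mitochondrial membrane, pass through complex III and cytochrome c to complex IV, and the proton gradient made on the way drives ATP synthase. Each large complex joins subunits of the nuclear and the mitochondrial genome. In glucose medium most ATP comes from fermentation and the nuclear genes of respiration are held low, largely through loss of the activator Hap4, which works with the DNA-binding proteins Hap2, Hap3 and Hap5.

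ANC1 itself, under its symbol TAF14, gave intensities of 8.37, 14.2 and 8.07 in anc1Δ cells with MMS and 6.87, 15.7 and 8.71 in untreated anc1Δ cells, against 193, 175 and 198 in wildtype cells with MMS and 261, 356 and 237 in untreated wildtype cells. Its loss was therefore seen on all 6 anc1Δ arrays. URA3 stood among the dimmest probe sets in all 4 groups, at percentiles of 6.99 to 8.78. Of 7 a-specific genes, markers of MATa cells, 7 were lower in anc1Δ cells both with and without MMS, against 13.8% and 10.5% of all probe sets. Their summed intensity was 2305 to 2473 in anc1Δ cells with MMS and 1895 to 2034 in untreated anc1Δ cells, against 12023 to 13467 in wildtype cells with MMS and 11923 to 13551 in untreated wildtype cells. The 4 alpha-specific genes summed to no more than 274 on any array. Arrays of a group correlated with r of at least 0.9885. The ratio of the 3′ to the 5′ probe set of actin, a sign of RNA length, was 3.43 to 4.0 in anc1Δ cells with MMS and 1.74 to 1.85 in untreated anc1Δ cells, against 3.31 to 3.85 in wildtype cells with MMS and 1.47 to 1.68 in untreated wildtype cells. The actin ratio thus moved with MMS in both strains. For YER022w the ratio was 9.74 to 11.8 in anc1Δ cells with MMS and 16.1 to 19.3 in wildtype cells with MMS. Without MMS it was at most 6.28 in anc1Δ cells and 5.91 in wildtype cells. For YER148w it was 4.69 to 7.09 in anc1Δ cells with MMS and 3.87 to 4.65 without. In wildtype cells it was 4.37 to 4.94 with MMS and 3.57 to 4.16 without. The part of these ratios in the MMS results and in the strain differences was not tested.

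Without MMS, anc1Δ cells had more transcript of respiratory genes than wildtype cells. Of the 33 members 13 were called higher and 0 lower, where a gene was called at a limma adjusted p under 0.05 and a difference of at least 1.5-fold. Of all probe sets 11.7% were called higher and 10.5% lower. The median log2 difference was 0.54 over the members and -0.05 over all probe sets, and 33 of 33 members had a value above 0. At the adjusted p alone 27 were higher, where 3746 of all 9275 probe sets passed in either direction. At an unadjusted p under 0.05 there were 29 higher and 0 lower. For the unadjusted p and the LPE test no share of all probe sets is given, here or below. The LPE test, which the methods used, called 12 higher and 0 lower.

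Under MMS the members fell in both strains. In anc1Δ cells 28 of 33 fell and 0 rose, against 13.4% of all probe sets lower and 13.0% higher, with a median of -1.22 over the members and -0.03 over all probe sets. At an unadjusted p under 0.05, 31 were lower and 1 higher, and the LPE test called 28 lower and 0 higher. In wildtype cells 24 fell and 1, NDE2, rose, against 23.3% of all probe sets lower and 20.3% higher, with a median of -0.83 over the members and -0.08 over all probe sets. The 24 that fell in wildtype cells all fell in anc1Δ cells too. QCR6, QCR7, QCR8 and ATP5 were called in anc1Δ cells alone, while NDE2, ATP1, ATP4, ATP7 and ATP14 were called lower in neither strain. The 2 responses share no array, and across the 33 members they were related with a Pearson's r of 0.905 and a Spearman's rho of 0.86, where all 5656 genes gave 0.787 and 0.787. Genes are not independent replicates, and the arrays are bulk measurements, in which fewer cells carrying a messenger and less messenger per cell cannot be told apart.

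With MMS, anc1Δ cells still stood above wildtype cells. Here 13 members were higher and 0 lower in anc1Δ cells, against 16.2% of all probe sets higher and 13.8% lower, with a median of 0.48 over the members and -0.01 over all probe sets. At an unadjusted p under 0.05, 22 were higher and 1 lower, and the LPE test called 12 higher and 0 lower. Of these 13 genes 7 were higher in anc1Δ cells without MMS as well, namely NDE1, NDE2, COR1, QCR7, COX7, COX13 and ATP18. QCR10, CYT1, COX4, COX8, COX12 and INH1 were called with MMS alone, and QCR6, ATP3, ATP4, ATP5, ATP14 and ATP16 without MMS alone. The response to MMS itself, tested as an interaction of strain and MMS, differed between the strains for 5 members. NDE1 had a higher value and NDE2, COX9, ATP5 and ATP20 a lower value of the anc1Δ response minus the wildtype response, against 10.7% of all probe sets higher and 10.1% lower. The count of 4 of 33 lower was near the share of all probe sets, and that of 1 higher was below it. The median of this difference was -0.15 over the members and 0.06 over all probe sets. The untreated strain comparison shares arrays with both MMS responses, so that values of these comparisons are given side by side only. For the untreated arrays the methods describe separate colonies of each strain, and for arrays with MMS the p-values measure only the spread between arrays.

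**Figure D1:**
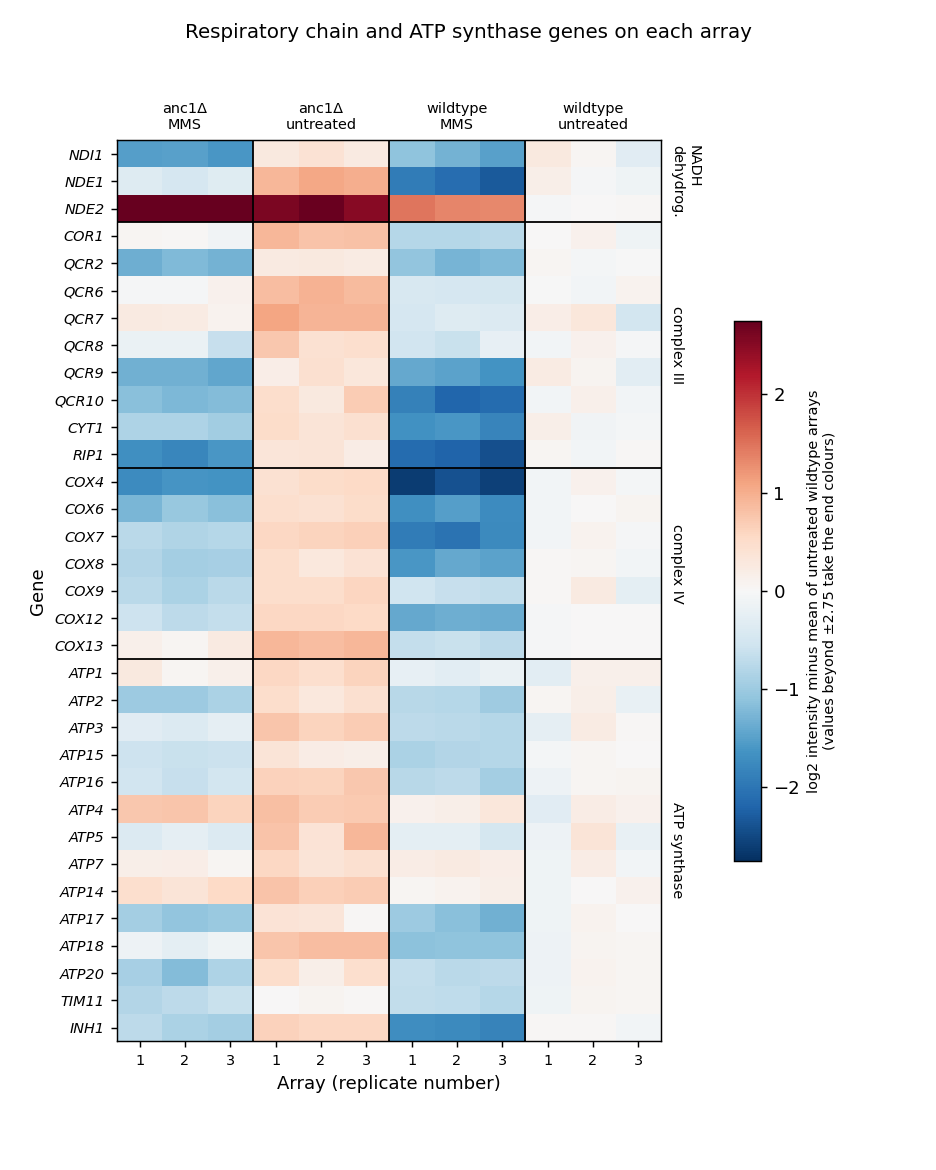
Log2 intensity of each of the 33 members (rows, by complex) on each of the 12 arrays (columns, by group) minus the mean of the 3 untreated wildtype arrays for that gene. Red is above and blue below that mean. Most rows are pale red in untreated anc1Δ cells and blue in wildtype cells with MMS, while NDE2 is red in all groups but untreated wildtype, where its arrays gave 39.2 to 40.4.

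The NADH dehydrogenases held the most divergent members. NDE1 and NDE2 encode the enzymes that face the intermembrane space and oxidize cytosolic NADH, and NDI1 encodes the enzyme that faces the matrix. NDE2 (YDL085W) gave intensities of 325, 357 and 336 in anc1Δ cells with MMS and 238, 263 and 226 in untreated anc1Δ cells. It gave 111, 101 and 99.5 in wildtype cells with MMS and 39.2, 39.8 and 40.4 in untreated wildtype cells. The 4 groups did not overlap, anc1Δ cells with MMS being highest and untreated wildtype cells lowest. NDE2 was thus 6.08-fold higher in anc1Δ cells without MMS (log2 difference 2.60 ± 0.10 SE, n = 3 each, limma adjusted p = 1.4e-06), the largest difference of any member in any comparison, and 3.27-fold higher with MMS. In wildtype cells it rose under MMS by 1.38 (adjusted p = 2.4e-08), the only member called higher there. In anc1Δ cells its MMS difference of 0.49 passed the adjusted p but not the fold limit. The responses differed by -0.89 (95% interval -1.16 to -0.62, adjusted p = 0.00027).

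NDE1 (YMR145C), the paralogue of NDE2, was bright and fell with MMS. It gave 1295, 1212 and 1308 in anc1Δ cells with MMS and 3136, 3457 and 3329 in untreated anc1Δ cells. It gave 434, 390.5 and 336 in wildtype cells with MMS and 1853, 1616 and 1519.8 in untreated wildtype cells, so that untreated anc1Δ cells stood highest, wildtype cells with MMS lowest, and no groups overlapped. Its level in anc1Δ cells was 1.99-fold that of wildtype without MMS and 3.30-fold with MMS (log2 differences 1.0 and 1.72, adjusted p = 0.00037 and 6.8e-08). It fell by 1.38 in anc1Δ cells and by 2.11 in wildtype cells on the log2 scale, and the fall was smaller in anc1Δ cells by 0.73 (95% interval 0.39 to 1.06, adjusted p = 0.0043). NDE1 was the only member whose response was called less negative in anc1Δ cells at the 1.5-fold limit. NDI1 fell by 1.84 in anc1Δ cells and by 1.30 in wildtype cells. It was the least affected of the 3 by strain, with log2 differences of -0.25 with MMS and 0.30 without, neither past the adjusted p.

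**Figure D2:**
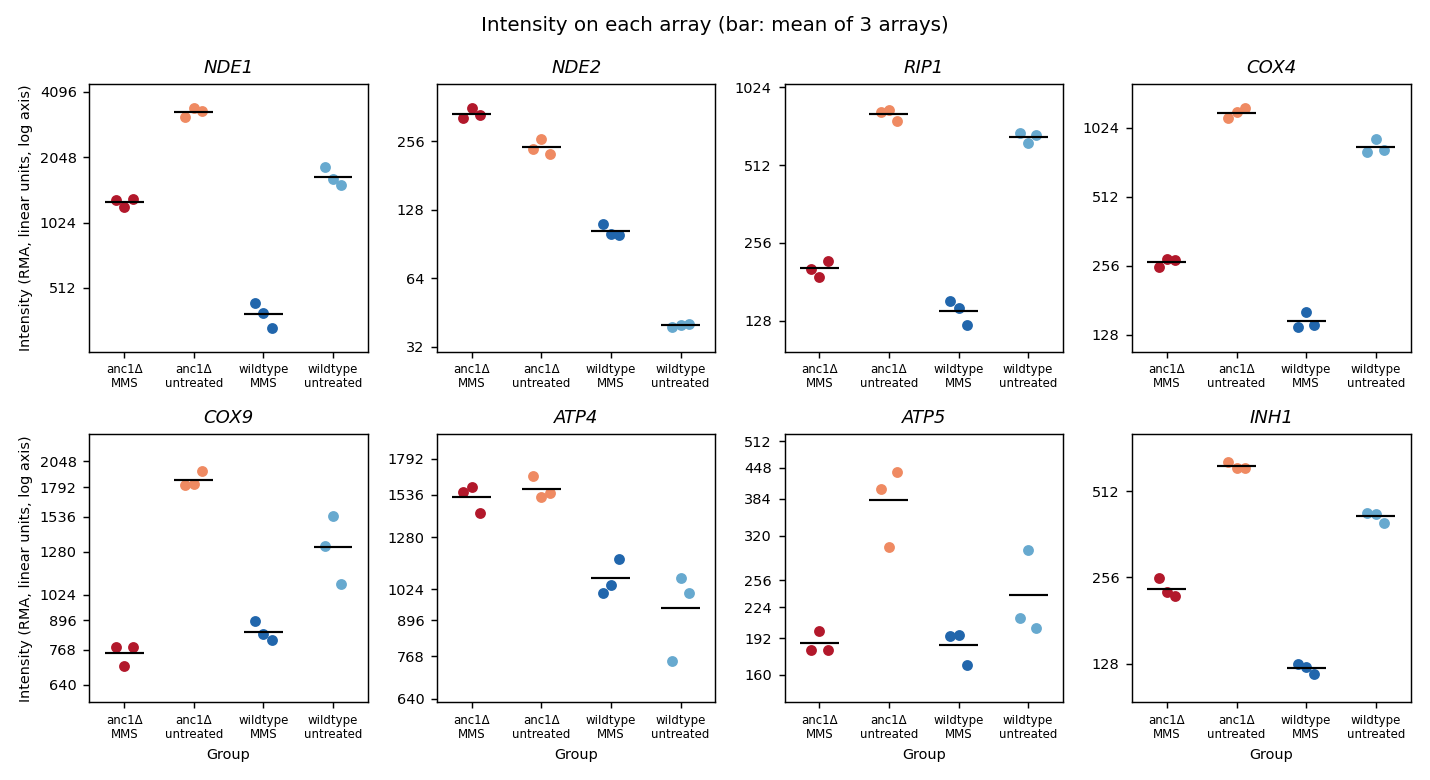
Intensity (linear RMA units on a log axis) of 8 members on each array, by group, with a bar at the mean of 3 arrays. NDE1, RIP1, COX4 and INH1 are lowest in wildtype cells with MMS, NDE2 is lowest in untreated wildtype cells, and ATP4 sits at 1422 or above on all anc1Δ arrays and at 1165 or below on all wildtype arrays with or without MMS.

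Complex III passes electrons from ubiquinol to cytochrome c. Its members fell under MMS in 9 of 9 cases in anc1Δ cells (median -1.32) and in 6 of 9 in wildtype cells (median -1.19), and 4 of 9 were higher in anc1Δ cells with MMS and 3 of 9 without. The shares of all probe sets were 13.4% and 23.3% lower under MMS in anc1Δ and wildtype cells. For higher in anc1Δ cells they were 16.2% with MMS and 11.7% without. RIP1 (YEL024W), the Rieske iron-sulfur protein, gave 204, 189.7 and 218 in anc1Δ cells with MMS and 825, 836 and 760.1 in untreated anc1Δ cells. It gave 152, 144 and 123 in wildtype cells with MMS and 681, 624 and 670.3 in untreated wildtype cells. In both strains the arrays with MMS lay far below those without, and the strains did not overlap in either condition. RIP1 fell by 1.99 in anc1Δ cells and by 2.24 in wildtype cells (adjusted p = 9.1e-09 and 9.5e-10), the largest falls of the complex in each strain. Its strain differences of 0.55 with MMS and 0.29 without passed the adjusted p but not the fold limit. A second probe set for RIP1, which the array carries among its controls and which was not in the fit, gave differences of -2.11 in anc1Δ cells and -2.05 in wildtype cells.

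QCR10 (YHR001W-A), a small membrane subunit, gave 248, 234 and 243 in anc1Δ cells with MMS and 770.5, 663 and 890.0 in untreated anc1Δ cells, against 152, 121 and 128 in wildtype cells with MMS and 524, 612 and 523 in untreated wildtype cells. CYT1 (YOR065W), which encodes the heme protein cytochrome c1, gave 291, 294 and 269.9 in anc1Δ cells with MMS and 749, 677 and 716 in untreated anc1Δ cells, against 166, 173 and 149.7 in wildtype cells with MMS and 585, 492 and 505 in untreated wildtype cells. For both genes no groups overlapped, wildtype cells with MMS were lowest and untreated anc1Δ cells highest. The strain difference was called with MMS alone, at 0.86 for QCR10 and 0.81 for CYT1, and without MMS it was 0.48 and 0.44. Whether the strain difference changed with MMS was tested, and it did not pass for QCR10 (0.38, 95% interval 0.01 to 0.75) or CYT1 (0.37, 95% interval 0.07 to 0.66).

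The other 6 subunits of complex III had log2 differences between -1.5 and -0.40 in wildtype cells under MMS, all smaller in size than those of RIP1, QCR10 and CYT1. QCR9, a small subunit, fell by 1.67 in anc1Δ cells and 1.5 in wildtype cells, and QCR2, a core protein, by 1.54 in anc1Δ cells and 1.19 in wildtype cells, with no call between the strains for either. COR1, the other core protein, fell by 0.84 in anc1Δ cells and by 0.77 in wildtype cells and was higher in anc1Δ cells by 0.77 with MMS and 0.84 without. QCR6, QCR7 and QCR8, small subunits at the periphery of the complex, fell in anc1Δ cells by 0.87, 0.79 and 0.86. In wildtype cells they had differences of -0.46, -0.40 and -0.46, all past the adjusted p and short of the fold limit. The difference between the responses was -0.41 for QCR6 (95% interval -0.67 to -0.15, adjusted p = 0.021), which passed the adjusted p and not the fold limit. It passed neither for QCR7 (-0.39, adjusted p = 0.22) and QCR8 (-0.41, adjusted p = 0.15). QCR6 and QCR7 were also higher in untreated anc1Δ cells, by 0.89 and 0.99.

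QCR7 varied within untreated wildtype cells, where replicate 3 gave 1154 and the others 1865 and 2023. Without that array its MMS difference in wildtype cells was -0.65 and called. Its higher level in anc1Δ cells with MMS (0.60) was lost when anc1Δ MMS replicate 1 or 2 or wildtype MMS replicate 1 was left out, at 0.57, 0.58 and 0.57. QCR8 has a second, dimmer probe set, which gave -0.22 in anc1Δ cells under MMS (adjusted p = 0.081), and with the mean of both the call was lost at -0.54.

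Complex IV, cytochrome c oxidase, hands electrons to oxygen, and its 7 members here are small nuclear subunits around a core encoded in mitochondria. All 7 fell under MMS in both strains (median -1.30 in anc1Δ and -1.5 in wildtype cells), 5 were higher in anc1Δ cells with MMS and 2 without. The shares of all probe sets were 13.4% and 23.3% lower under MMS in anc1Δ and wildtype cells. For higher in anc1Δ cells they were 16.2% with MMS and 11.7% without. COX4 (YGL187C), a subunit needed for assembly of the enzyme, gave 254, 274 and 272 in anc1Δ cells with MMS and 1129, 1199.6 and 1243 in untreated anc1Δ cells. It gave 138, 161 and 141 in wildtype cells with MMS and 800.2, 918 and 818 in untreated wildtype cells. No groups overlapped, and wildtype cells with MMS were lowest. COX4 fell by 2.16 in anc1Δ cells and by 2.53 in wildtype cells (adjusted p = 2.7e-09 and 2.3e-10), the largest fall of any member in each strain, which is 4.46-fold and 5.76-fold. It was 1.82-fold higher in anc1Δ cells with MMS, while without MMS a difference of 0.50 stayed under the fold limit.

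COX7 (YMR256C) gave 674, 632 and 658 in anc1Δ cells with MMS and 1682, 1732 and 1787 in untreated anc1Δ cells, against 298, 274 and 333 in wildtype cells with MMS and 1063, 1213 and 1109.7 in untreated wildtype cells. COX7 was the member of complex IV with the largest strain difference, 1.12 with MMS, and was higher by 0.62 without. The latter call was lost without wildtype untreated replicate 1 (0.58) or with quantile normalization (0.57). It fell by 1.40 in anc1Δ cells and by 1.90 in wildtype cells. The difference of 0.50 (95% interval 0.22 to 0.78, adjusted p = 0.013) missed only the fold limit, and it was called with quantile normalization, at 0.67. COX6 (YHR051W) gave 304, 353 and 329 in anc1Δ cells with MMS and 1002, 983 and 1042 in untreated anc1Δ cells, against 226, 257 and 222 in wildtype cells with MMS and 691, 735 and 769 in untreated wildtype cells. Its falls of 1.62 in anc1Δ cells and 1.64 in wildtype cells were nearly equal, with a difference of 0.02 (95% interval -0.26 to 0.30).

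COX9 (YDL067C), a small membrane subunit, was the only member of complex IV whose response was called different between the strains. It gave 778, 707 and 778 in anc1Δ cells with MMS and 1812, 1822 and 1950.0 in untreated anc1Δ cells. It gave 892, 833 and 809 in wildtype cells with MMS and 1321, 1541 and 1081 in untreated wildtype cells. With MMS the anc1Δ arrays were all below the wildtype arrays, without MMS all above them, at log2 differences of -0.16 and 0.52 that were not called. COX9 fell by 1.30 in anc1Δ cells and by 0.62 in wildtype cells, a difference of -0.68 (95% interval -1.04 to -0.32, adjusted p = 0.0086), where 5 of the 7 members of complex IV had a positive difference. The 3 untreated wildtype arrays spread widely here. Without replicate 2 of them the fall in wildtype cells was -0.50 and no longer called, and without replicate 3, or with quantile normalization, the difference between the responses was -0.55 and no longer called.

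COX8, COX12 and COX13 completed the complex. COX12 and COX8 fell by 1.21 and 1.27 in anc1Δ cells and by 1.37 and 1.5 in wildtype cells, and were higher in anc1Δ cells with MMS by 0.73 and 0.62. The call for COX8 was lost without replicate 1 of anc1Δ cells with MMS (0.57) or of wildtype cells with MMS (0.56). The LPE test also lost it (0.57). COX13, which had the smallest fall of the complex in anc1Δ cells (0.74, against 0.66 in wildtype cells), was higher in anc1Δ cells by 0.81 with MMS and 0.89 without.

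**Figure D3:**
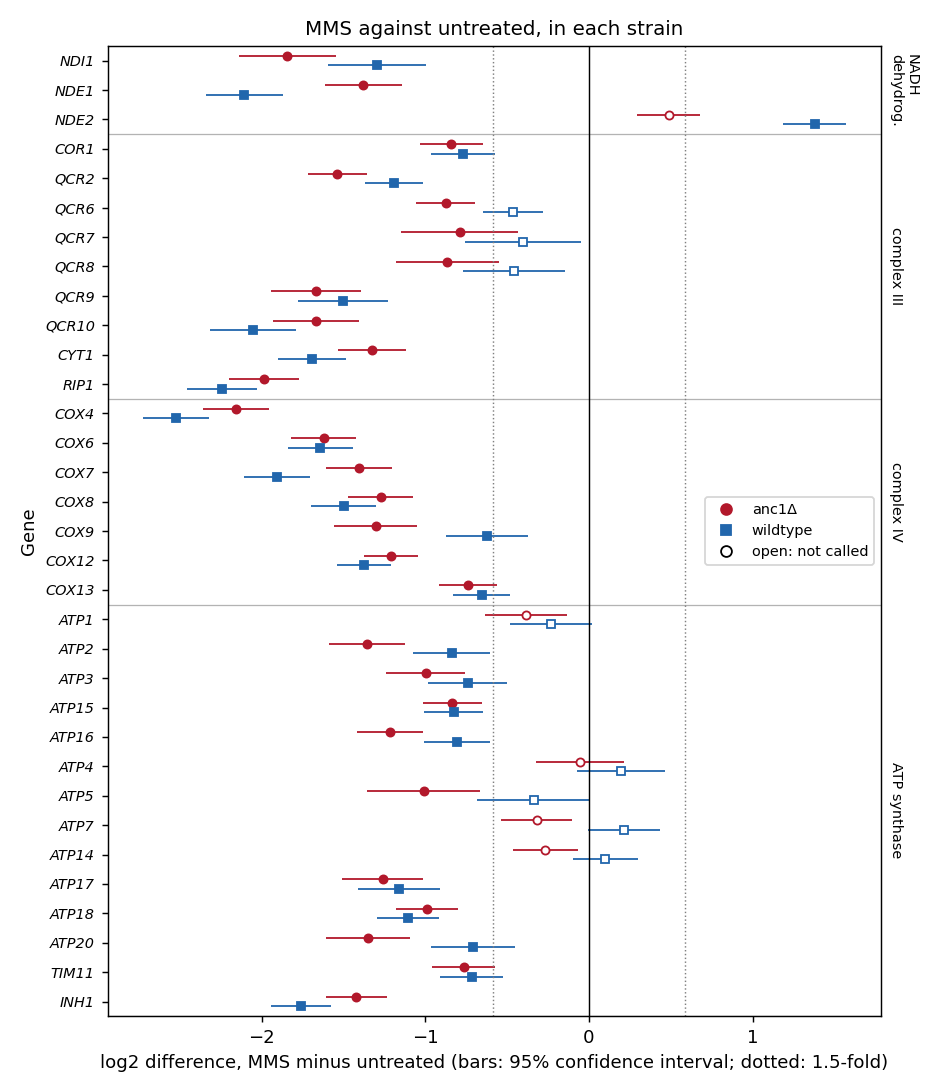
Log2 difference of MMS minus untreated for each member in anc1Δ cells (circles) and wildtype cells (squares), by complex, with 95% confidence intervals. Filled symbols were called and dotted lines mark 1.5-fold. All members of complex IV lie left of the line in both strains, while ATP1, ATP4, ATP7 and ATP14 of ATP synthase lie between the dotted lines in both strains.

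In ATP synthase a rotor in the membrane drives the making of ATP in a soluble F1 head, which a peripheral stalk holds. Of the 14 members in ATP synthase 10 fell under MMS in anc1Δ cells and 9 in wildtype cells (medians -0.99 and -0.73), 2 were higher in anc1Δ cells with MMS and 6 without. The shares of all probe sets were 13.4% and 23.3% lower under MMS in anc1Δ and wildtype cells. For higher in anc1Δ cells they were 16.2% with MMS and 11.7% without. The count of 2 of 14 with MMS was thus near the share of all probe sets. Counts are given by part of the enzyme. All 4 small membrane subunits were called lower in both strains, as were 4 of the 5 subunits of the head and central stalk. Of the 4 peripheral stalk subunits 1 was called lower in anc1Δ cells and 0 in wildtype cells. At the adjusted p alone, 3 of these 4 were lower in anc1Δ cells and 0 in wildtype cells. The median difference under MMS was -1.13 for the membrane subunits, -1.0 for the head and -0.29 for the stalk in anc1Δ cells, and -0.91, -0.81 and 0.15 in wildtype cells. These counts describe few genes, and the parts were not tested against each other.

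In the head, ATP2 (YJR121W), the catalytic beta subunit, gave 566, 563 and 619.9 in anc1Δ cells with MMS and 1571, 1384 and 1525 in untreated anc1Δ cells, against 670.5, 652 and 578 in wildtype cells with MMS and 1175, 1256 and 978 in untreated wildtype cells. It fell by 1.36 in anc1Δ cells and by 0.84 in wildtype cells (adjusted p = 4.7e-07 and 1.5e-05). The strains overlapped with MMS and not without. ATP16 (YDL004W), the delta subunit of the central stalk, gave 869, 817 and 886 in anc1Δ cells with MMS and 1951, 1937 and 2090.3 in untreated anc1Δ cells, against 747, 761 and 656 in wildtype cells with MMS and 1146, 1310.3 and 1331 in untreated wildtype cells. It fell by 1.22 in anc1Δ cells and by 0.81 in wildtype cells and was higher by 0.66 in untreated anc1Δ cells, a call lost by the LPE test (0.57). ATP3, the gamma subunit that forms the rotating shaft, fell by 1.0 in anc1Δ cells and by 0.74 in wildtype cells and was higher by 0.69 in untreated anc1Δ cells, a call lost without wildtype untreated replicate 1 (0.57). ATP15, the epsilon subunit, fell by 0.83 in anc1Δ and 0.83 in wildtype cells.

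ATP1, the alpha subunit that alternates with beta in the head, was not called lower in either strain. Its difference under MMS was -0.38 in anc1Δ cells, which passed the limma adjusted p (0.015) but not the fold limit. In wildtype cells it was -0.23, which passed neither. ATP1 was the brightest member in both groups with MMS, with means of 1944 in anc1Δ cells and 1479.8 in wildtype cells. Probe sets differ in how they bind, so that this is an order of signals and not of transcript numbers.

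The peripheral stalk holds the head still while the rotor turns. ATP4, subunit b, gave 1553, 1589 and 1422 in anc1Δ cells with MMS and 1664, 1519 and 1548 in untreated anc1Δ cells. It gave 1009.6, 1043 and 1165 in wildtype cells with MMS and 754, 1075 and 1007 in untreated wildtype cells. Arrays with and without MMS overlapped in each strain, and its MMS differences were -0.05 in anc1Δ cells (95% interval -0.32 to 0.22) and 0.20 in wildtype cells (95% interval -0.07 to 0.46). ATP7, subunit d, had -0.32 in anc1Δ cells and 0.21 in wildtype cells, and ATP14, subunit h, -0.27 and 0.10, none of them called. In anc1Δ cells both passed the limma adjusted p (0.018 for ATP7 and 0.028 for ATP14) but not the fold limit. In wildtype cells they passed neither. ATP4 and ATP14 were higher in untreated anc1Δ cells, by 0.75 and 0.72. ATP14 has a second probe set, which gave -0.92 in anc1Δ cells under MMS, called at an adjusted p of 2.5e-05, and -0.36 in wildtype cells, not called. The place of ATP14 among the genes not called lower in anc1Δ cells thus rests on the probe set used. ATP5, the OSCP subunit that joins stalk and head, was the stalk member called lower in anc1Δ cells.

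ATP5 gave 181, 198 and 181 in anc1Δ cells with MMS and 403, 302 and 439 in untreated anc1Δ cells. It gave 194, 195 and 168 in wildtype cells with MMS and 213, 298 and 202 in untreated wildtype cells. The strains overlapped with MMS, and the untreated anc1Δ arrays stood above all others. It fell by 1.01 in anc1Δ cells (adjusted p = 0.00017) and had a difference of -0.34 in wildtype cells (adjusted p = 0.078). The difference of the responses, -0.67 at an adjusted p of 0.04, was lost when any array but anc1Δ untreated replicate 2, wildtype untreated replicate 2 or wildtype MMS replicate 3 was left out, and with the replicate number as a block its adjusted p was 0.059. With arrays centred on their median it was -0.59 and with quantile normalization -0.57, neither called. The higher level in untreated anc1Δ cells (0.69) was lost without replicate 1 or 3 of either untreated group, at 0.58 to 0.64.

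Of the membrane subunits, ATP20 (YPR020W), subunit g, and TIM11, subunit e, pair the enzyme into dimers. ATP20 was the dimmest member in all groups but untreated wildtype. It gave 51.6, 43.0 and 54.6 in anc1Δ cells with MMS and 136, 109 and 135 in untreated anc1Δ cells, against 61.8, 57.9 and 59.3 in wildtype cells with MMS and 88.3, 104 and 101 in untreated wildtype cells. As with COX9, the anc1Δ arrays lay below the wildtype arrays with MMS and above them without, at -0.27 and 0.37, neither called. It fell by 1.35 in anc1Δ cells and by 0.71 in wildtype cells, a difference of -0.64 (95% interval -1.0 to -0.28, adjusted p = 0.013) that was no longer called without anc1Δ untreated replicate 1 (-0.58), wildtype untreated replicate 1 (-0.57) or anc1Δ MMS replicate 2 (-0.54), or with arrays centred on their median (-0.56). TIM11 fell by 0.77 in anc1Δ cells and by 0.72 in wildtype cells with strain differences of -0.0046 with MMS and 0.05 without, the smallest of any member in each case.

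ATP17 (YDR377W), subunit f, gave 228, 204 and 216 in anc1Δ cells with MMS and 563, 549 and 446 in untreated anc1Δ cells, against 217, 195 and 174 in wildtype cells with MMS and 403, 466 and 439.9 in untreated wildtype cells. The strains overlapped in both conditions, and ATP17 fell by 1.26 in anc1Δ cells and by 1.16 in wildtype cells. ATP18, subunit i/j, fell by 0.99 in anc1Δ cells and by 1.11 in wildtype cells and was higher in anc1Δ cells by 0.93 with MMS and 0.82 without. INH1 (YDL181W) encodes the inhibitor that stops the enzyme from splitting ATP when the gradient collapses. It gave 254, 228 and 219.8 in anc1Δ cells with MMS and 646, 616 and 616 in untreated anc1Δ cells, against 128, 125 and 117 in wildtype cells with MMS and 429.8, 426 and 398 in untreated wildtype cells. No groups overlapped. INH1 had the largest fall of the ATP synthase members in each strain, 1.42 in anc1Δ cells and 1.76 in wildtype cells (adjusted p = 4.1e-08 and 2.2e-09), and was higher in anc1Δ cells by 0.92 with MMS. Without MMS its difference of 0.58 lay just under the fold limit.

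**Figure D4:**
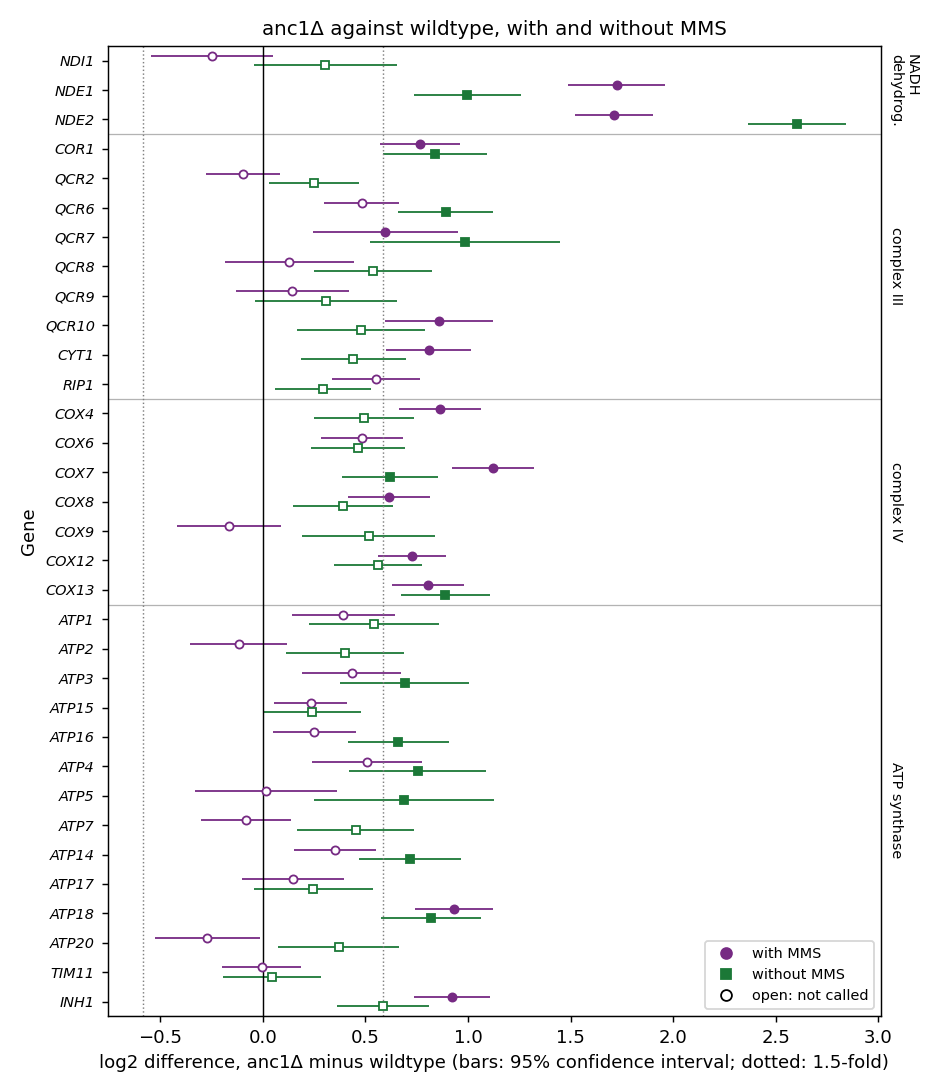
Log2 difference of anc1Δ minus wildtype for each member with MMS (circles) and without MMS (squares), by complex, with 95% confidence intervals. Filled symbols were called and dotted lines mark 1.5-fold. All 33 values without MMS are above 0, NDE2 lies farthest out without MMS at 2.60, and NDE1 and NDE2 lead with MMS at 1.72 and 1.71.

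The subunits encoded in mitochondria were called higher in anc1Δ cells, and none was called lower under MMS. The list held COX1, COX2 and COX3 of complex IV, COB, which encodes cytochrome b of complex III, and ATP6, ATP8 and OLI1 of the membrane part of ATP synthase. All 7 were higher in anc1Δ cells with and without MMS (medians 1.93 and 1.76), against 16.2% and 11.7% of all probe sets. Under MMS 0 were called lower in either strain, while ATP6 rose in anc1Δ cells (0.62) and OLI1 in wildtype cells (0.59). Here 13.4% of all probe sets were lower and 13.0% higher in anc1Δ cells, and 23.3% lower and 20.3% higher in wildtype cells. The 1 of 7 that rose was near the share in anc1Δ cells and below it in wildtype cells. At an unadjusted p under 0.05, 0 were lower and 3 higher in anc1Δ cells and 1 was lower and 3 were higher in wildtype cells, and the LPE test called 0 lower in both. The median MMS difference was 0.40 in anc1Δ cells and 0.39 in wildtype cells. The call for ATP6 was lost without replicate 2 of either anc1Δ group (0.50 and 0.53), that for OLI1 without wildtype untreated replicate 2 (0.58) or wildtype MMS replicate 2 (0.56) or 3 (0.49). With arrays centred on their median both calls were lost, at 0.58 for ATP6 and 0.47 for OLI1.

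COX3 gave 935, 848 and 912 in anc1Δ cells with MMS and 886, 735 and 862 in untreated anc1Δ cells, against 79.8, 94.0 and 137 in wildtype cells with MMS and 77.7, 73.8 and 79.7 in untreated wildtype cells. COB gave 1366, 1454 and 1059 in anc1Δ cells with MMS and 1166, 779.9 and 899 in untreated anc1Δ cells, against 120.3, 174 and 253 in wildtype cells with MMS and 141, 173 and 179.6 in untreated wildtype cells. For both genes all anc1Δ arrays lay above all wildtype arrays, and the untreated strain differences were 3.42 and 2.51 (adjusted p = 5.6e-07 and 2.6e-05). COX1, ATP6 and COX2 were higher by 1.18, 1.83 and 1.76 without MMS, and OLI1, the brightest of the list, by 0.89. With MMS the call for OLI1 was lost without wildtype MMS replicate 1 (0.58) or with quantile normalization (0.51). ATP8 (1.40) and COX2 were dim, ATP8 lying at percentiles of 4.88 to 24.2 of all probe sets in the 4 groups. The response of COX1 differed between the strains by 0.61 (adjusted p = 0.017), a call that was lost without wildtype untreated replicate 2 (0.56) or wildtype MMS replicate 1 (0.49) or 2 (0.58). It was also lost with quantile normalization (0.56) and with the mean of the probe sets of COX1 (0.53, adjusted p = 0.14). The other probe sets of COX1 gave 0.27 and 0.71, neither called.

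These 7 genes have 12 probe sets, of which 11 were higher in anc1Δ cells in each condition. The exception was a second probe set of OLI1, at 0.02 with MMS and 0.04 without, and with the mean of its probe sets OLI1 was not called in any of these comparisons. A dimmer probe set of COX1 was called lower in wildtype cells under MMS, at -0.86. Mitochondrial messengers of yeast lack the poly(A) tail of nuclear ones, and the labels give only the standard Affymetrix labelling, so that how evenly these messengers were labelled was not tested.

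**Figure D5:**
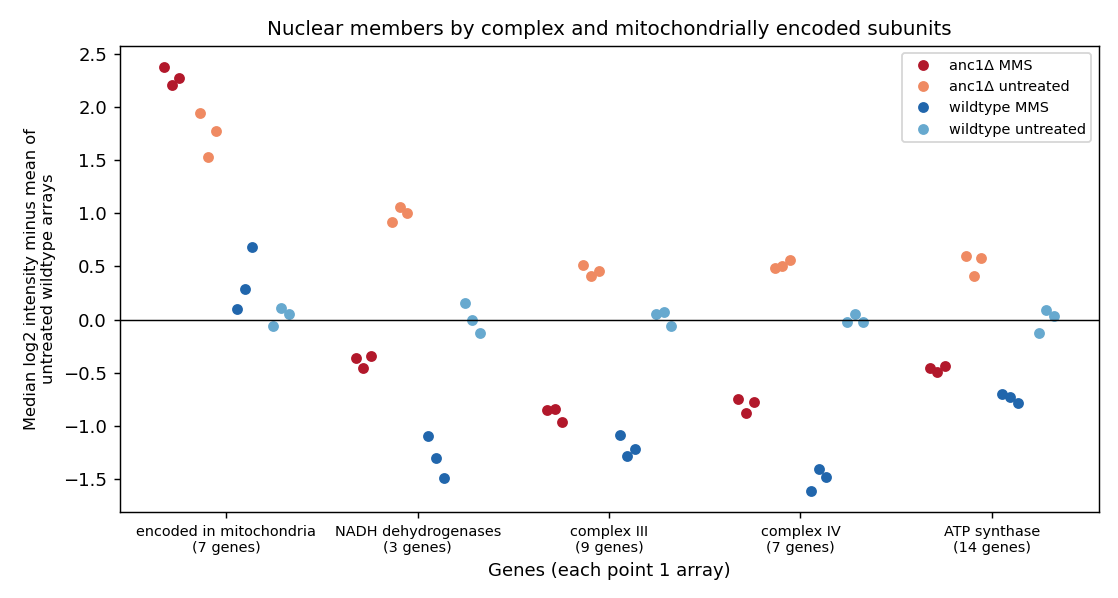
Median log2 intensity, minus the mean of the untreated wildtype arrays for each gene, over the 7 mitochondrially encoded subunits and the members of each complex. Each point is an array, and the groups stand left to right as in the legend. For the mitochondrial genes both anc1Δ groups lie above both wildtype groups, while for all 4 sets of nuclear genes both groups with MMS lie below both untreated groups.

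Of the regulators, HAP4 was higher in anc1Δ cells and fell under MMS. It gave 717, 703 and 676 in anc1Δ cells with MMS and 2492, 2297 and 2305 in untreated anc1Δ cells, against 456, 332 and 253 in wildtype cells with MMS and 1307, 1140.4 and 614 in untreated wildtype cells. Replicate 3 of the untreated wildtype cells was low, and no groups overlapped except that this array lay below the anc1Δ arrays with MMS. HAP4 was higher in anc1Δ cells by 1.05 with MMS and 1.28 without, and fell by 1.76 in anc1Δ cells and by 1.53 in wildtype cells (adjusted p = 6.2e-05 and 0.00011). All 4 calls held in every alternative that kept the 1.5-fold limit, with the untreated strain difference between 0.95 and 1.5. The responses differed by -0.23 (95% interval -0.98 to 0.52). HAP2 and HAP3, whose products bind DNA with Hap5, and HAP1, a heme-responsive activator, were not called in any comparison. HAP1 spread widely, at 744, 1274 and 1130 in untreated wildtype cells and 1283, 871 and 1209 in untreated anc1Δ cells. Its lack of a call therefore does not show that it was unchanged. Whether its probe set read HAP1 alone, and whether Hap1 was active in these strains, was not tested. HAP5 fell in anc1Δ cells (-0.73), against 0.01 in wildtype cells, a difference of -0.74 (adjusted p = 0.0015).

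The other 12 nuclear genes for subunits and electron carriers, which are not members, fell in 12 of 12 cases in anc1Δ cells (median -0.89) and in 8 of 12 in wildtype cells (median -0.69), and 3 were higher in anc1Δ cells with MMS and 5 without. The shares of all probe sets were 13.4% and 23.3% lower under MMS in anc1Δ and wildtype cells. For higher in anc1Δ cells they were 16.2% with MMS and 11.7% without. CYC1, which encodes the main form of cytochrome c, gave 77.1, 104 and 109.8 in anc1Δ cells with MMS and 475, 465 and 474 in untreated anc1Δ cells, against 18.7, 20.3 and 21.1 in wildtype cells with MMS and 440.3, 539.9 and 545 in untreated wildtype cells. Its untreated levels overlapped between the strains, while with MMS every anc1Δ array lay above every wildtype array. It fell by 2.30 in anc1Δ cells and by 4.66 in wildtype cells, more than any member, and the responses differed by 2.36 (95% interval 1.96 to 2.77, adjusted p = 3.5e-06). COX5A and COX5B, the aerobic and the hypoxic form of a complex IV subunit, fell by 1.67 and 1.40 in anc1Δ cells and by 2.07 and 0.95 in wildtype cells. Without MMS, CYB2, a mitochondrial lactate dehydrogenase, was higher in anc1Δ cells by 2.08, STF2 and STF1, partners of the inhibitor Inh1, by 1.22 and 1.11, and SDH2 of complex II by 0.71. The call for SDH2 was lost without wildtype untreated replicate 3 (0.55) or by the LPE test (0.57).

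The factors that build the complexes were followed as a list of their own. Of 29 assembly factors 0 were higher and 1, ATP10, was lower in untreated anc1Δ cells (median 0.00, with 6 higher and 9 lower at an unadjusted p under 0.05 and 1 higher and 1 lower by the LPE test), and 11 fell under MMS in anc1Δ cells and 9 in wildtype cells. The call for ATP10 was lost without replicate 1 of anc1Δ (-0.55) or wildtype (-0.44) untreated cells. It was also lost with arrays centred on their median (-0.55) and by the LPE test (-0.54). CMC1, a copper-handling protein needed for complex IV, fell by 1.01 in anc1Δ cells and by 1.23 in wildtype cells, and COX17, a copper chaperone for complex IV, fell by 1.16 in anc1Δ cells and by 1.68 in wildtype cells. Of 11 activators that translate single mitochondrial messengers 0 were called between the untreated strains, with 0 higher and 3 lower at an unadjusted p under 0.05 and 0 by the LPE test. Under MMS 3 fell in anc1Δ cells and 3 in wildtype cells. Beside the counts of both lists, 13.4% of all probe sets were called lower under MMS in anc1Δ cells and 23.3% in wildtype cells. Between the untreated strains 11.7% were higher in anc1Δ cells and 10.5% lower. The 3 of 11 activators in wildtype cells lay near the share of all probe sets. PET494 and PET111, activators for COX3 and COX2, fell in both strains, by 1.05 and 0.63 in anc1Δ cells and by 0.66 and 0.86 in wildtype cells. The call for PET111 in anc1Δ cells was lost without anc1Δ untreated replicate 2 (-0.54) or anc1Δ MMS replicate 1 (-0.57) or 2 (-0.58), and that for PET494 in wildtype cells without wildtype untreated replicate 1 (-0.57) or 2 (-0.56).

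Among 6 carriers of the mitochondrial membranes, AAC1 and PET9, which exchange ADP for ATP, were higher in anc1Δ cells, by 1.35 and 0.97 with MMS and by 1.26 and 0.80 without. MIR1, the main phosphate carrier, fell by 0.94 in anc1Δ cells and by 1.42 in wildtype cells. PIC2, a second phosphate carrier, was at -0.14 in anc1Δ cells and rose in wildtype cells under MMS (1.05), with a called difference of -1.18 (adjusted p = 0.0064), and it was higher by 1.0 in untreated anc1Δ cells. AAC3, the form of the ADP/ATP carrier used without oxygen, was at -0.05 in anc1Δ cells and fell in wildtype cells (-1.40), with a difference of 1.35 (adjusted p = 0.0006). The 5 genes known to be raised in cells that cannot respire had no common direction. In untreated anc1Δ cells 2 were higher and 1 lower, against 11.7% and 10.5% of all probe sets. Under MMS 2 rose and 1 fell in anc1Δ cells, against shares of 13.0% and 13.4%. In wildtype cells 3 rose and 1 fell, against 20.3% and 23.3%, so that the 1 of 5 that fell was near the share. CIT2, a peroxisomal citrate synthase, and DLD3, a lactate dehydrogenase, rose under MMS, by 0.64 and 0.74 in anc1Δ cells and by 1.69 and 1.70 in wildtype cells. The calls in anc1Δ cells were lost without anc1Δ untreated replicate 1 for CIT2 (0.54), and without anc1Δ untreated replicate 3 (0.51) or anc1Δ MMS replicate 1 (0.58) for DLD3. ACO1, the aconitase of the citric acid cycle, fell by 0.85 in anc1Δ cells and by 0.79 in wildtype cells. Without MMS, CIT2 and ACO1 were higher in anc1Δ cells by 1.17 and 0.73, and DLD3 was lower (-0.69), a call lost without replicate 2 or 3 of either untreated group (-0.73 to -0.46). IDH1 and IDH2, the subunits of isocitrate dehydrogenase, were at -0.34 and -0.47 in anc1Δ cells under MMS and at 0.64 and 0.47 in wildtype cells. Of these only the value of IDH1 in wildtype cells was called, and that call was lost without replicate 1 of either wildtype group (0.53 and 0.55). It was also lost with arrays centred on their median (0.52) and with quantile normalization (0.55). The response difference was called lower for 4 of the 5, against 10.1% of all probe sets. It was -1.06 for CIT2, -0.98 for IDH1, -0.96 for DLD3 and -0.94 for IDH2. The call of DLD3 was lost when any of 7 arrays was left out, and with quantile normalization (-0.81). The summed intensity of the 5 was 3939 to 4335 in anc1Δ cells with MMS and 5328 to 5963 in untreated anc1Δ cells, against 5217 to 5280 in wildtype cells with MMS and 3805 to 4256 in untreated wildtype cells. Their part in the results was not tested.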

How the data were processed

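Total RNA of the 4 groups was hybridized to Affymetrix YG-S98 arrays. Per the paper's methods the authors made the deposited intensity values with RMA, which corrects background, normalizes by quantiles and summarizes each probe set, and the deposited values are linear intensities. No source used here gives a version or a genome build. Titles were followed for the wildtype arrays with MMS, whose source names read untreated. A filter of the authors on present calls was not used.

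Log2 of these intensities was tested with limma 3.58.1 in R 4.3.3 on 9275 of 9335 probe sets, 60 controls being left out. The untreated strains were compared on their 6 arrays, all else on 12 arrays with 1 mean per group. P-values were adjusted over all probe sets by the Benjamini-Hochberg method, and a call needed an adjusted p under 0.05 and a 1.5-fold difference. The response difference is the interaction of strain and MMS. Genes were named from the platform annotation, with 6504 probe sets naming 1 gene, 328 several and 2443 none, and the brightest probe set stood for a gene. The members and lists were chosen with earlier results of these data known. All members were named, and every array was printed for those with the largest difference in any comparison (at most 2 NADH dehydrogenases, 3 members of complex III, 3 of complex IV and 5 of ATP synthase) and for any called against the median of its complex. Of the other lists at most 4 called genes with the smallest p per comparison were named, and all HAP regulators and mitochondrial subunits. The arrays of ATP4 and ATP5, and values of a named gene in further comparisons, were added after they were seen. The LPE test was rewritten with 100 intensity bins. The scripts were tested on simulated data. The number of arrays limits the precision.

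Same-numbered anc1Δ arrays with and without MMS deviated together over all probe sets, though weakly (r of 0.373, 0.24 and 0.167). The titles give replicate numbers and do not say that these pair the groups. The main tests were unpaired, and their p-values take no account of a pairing. The numbers are the labels' own. Alternatives were a replicate block, other scaling, filters, probe set rules, fold limits and leaving out each array.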

Additional observations from a re-analysis of the deposited data

Results flagged for a closer look

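For 5 members the MMS response differed between the strains by the interaction test of limma, given here as the anc1Δ response minus the wildtype response on the log2 scale. NDE1 gave 0.73, its fall being smaller in anc1Δ cells. NDE2 gave -0.89, where the wildtype cells rose and the anc1Δ cells were not called. COX9 gave -0.68, ATP5 gave -0.67 and ATP20 gave -0.64, their values under MMS being more negative in anc1Δ cells. The calls for NDE1 and NDE2 held in each alternative that kept the 1.5-fold limit, with values of 0.63 to 0.93 and of -0.94 to -0.81. Those for COX9, ATP5 and ATP20 were each lost in at least 1 alternative. Among all probe sets 10.7% were called higher and 10.1% lower in this comparison, against 1 higher and 4 lower of the 33 members. The lower count was thus near the share of all probe sets, and the higher count was below it.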

How the results depend on the processing

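The direction of every called member held in all alternatives, and 36 of 3069 member values turned sign, none of them called and none above 0.12 in size before the change of setting (208 of 8423 values of the other lists, up to 0.40). With no fold limit 27 members were higher in untreated anc1Δ cells and 22 with MMS, 1 was higher under MMS in anc1Δ cells, and the response difference had 2 higher and 11 lower. Of all 9275 probe sets 3746, 5289, 4622 and 2789 passed the adjusted p in the same comparisons, counting both directions. At a fold of at least 2 there were 1 member higher without MMS, 3 higher with MMS, 15 lower under MMS in wildtype cells, and 0 higher and 0 lower for the response difference. With arrays centred on their median the response difference had 2 lower, and with quantile normalization 2 higher and 2 lower. Centring moved the wildtype arrays with MMS by 0.07 to 0.13 on the log2 scale and raised the median strain difference with MMS to 0.61. Leaving out 1 array gave 11 to 17 members higher in untreated anc1Δ cells, 11 to 13 higher with MMS, 28 to 28 lower under MMS in anc1Δ cells, 23 to 25 in wildtype cells, and 1 higher and 2 to 6 lower for the response difference. The 6 came without wildtype untreated replicate 2. The replicate block gave 13 higher without and 13 with MMS, 28 lower under MMS in anc1Δ cells, also on the anc1Δ arrays alone (a setting chosen after seeing the data), 24 lower in wildtype cells, and 1 higher and 3 lower for the response difference. It changed no member's call but that of ATP5. Dim genes such as ATP20, ATP8 and COX2 are measured with less precision.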
